A study of Mus musculus with 20 samples.

Results

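Lyl1, Il34, Ky, Gpx8, Tmem273 and Spp1 are 6 mouse genes that were low in RFP+ intraepithelial lymphocytes (IELs) and in IELs that had lost Prdm1, the gene encoding BLIMP1. They were picked by symbol after their values in those 2 comparisons were known, so these values are given here as a description without a test. All 6 genes were found in every table, among 12289 genes listed in all tables and 25933 listed in any. Bulk RNA-seq was run on 20 libraries of CD8αα+ αβ T cells taken from the small intestinal epithelium of unchallenged mice. Cells positive for RFP and CD160 (RFP+, 3 libraries) and cells negative for both (RFP−, 3 libraries) came from mice of genotype Bcl6-RFP/RFP, in which RFP reports the Bcl6 locus. The whole CD8αα+ population was taken from Prdm1 fl/fl Cd8cre, Tcf7 fl/fl Cd8cre and Bcl6 fl/fl Cd8cre mice (knockouts, 2 libraries each). Each knockout was set against Prdm1 fl/fl, Tcf7 fl/fl or Bcl6 fl/fl littermates (2 libraries each). Another 2 libraries titled LI, labelled small intestine and Bcl6-RFP/RFP, have no group in the labels. Ages and sexes of the mice are not given in the sources used here, nor is it said that replicates came from separate animals, so p-values measure the spread between these samples, which may be technical. Every knockout carried Cd8cre, a Cre driven by Cd8 regulatory sequence, and no littermate did, so an effect of Cre cannot be told apart from loss of the floxed gene.

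Depth ran from 14.5 to 17.4 megareads in the RFP libraries. Prdm1 libraries had 30.1 to 38.4 megareads, Tcf7 libraries 41.0 to 48.2, Bcl6 libraries 22.1 to 23.0 and LI libraries 22.5 and 30.1. Values are FPKM (reads scaled to gene length and depth) in the RFP, LI and Bcl6 tables, and reads divided by a size factor per library (scaled reads, with no gene length) in the Prdm1 and Tcf7 tables. Levels were therefore compared only within an experiment. Depths may not compare across experiments either. Low counts were mostly even in Prdm1 (76.8 to 81.4%) and Tcf7 libraries (69.6 to 70.2%), as when both ends of a fragment are counted. In the libraries given as FPKM, 45.8 to 53.4% were even. Prdm1 itself stood at 640 and 362 scaled reads in Prdm1 knockout libraries, against 6092 and 5117 in littermates. Tcf7 stood at 7757 and 7993 scaled reads in Tcf7 knockout libraries, against 15430 and 15606 in littermates, so about 50.7% of the signal stayed. Bcl6 was at 0.550 and 0.638 FPKM in Bcl6 knockout libraries, against 0.772 and 0.735 FPKM in littermates. These are whole-gene values, which include any exon that the floxed allele leaves in place. Cd3e, which marks T cells, was at 157 FPKM or more in every RFP library, and Cd8a was at 542 to 946 FPKM there, against 0.72 to 1.27 FPKM of Cd8b1, the CD8β gene. Some RNA of myeloid cells was present in the Bcl6 experiment, where the 13 genes of the myeloid list summed to 20.4 and 60.4 FPKM in knockout libraries and 17.9 and 23.7 FPKM in littermates.

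BLIMP1 is a zinc-finger repressor that drives terminal differentiation of plasma cells and effector T cells, and it is known to shut down genes of the stem-like state such as Tcf7 and Bach2. TCF1, encoded by Tcf7, keeps T cells in that stem-like state, and BCL6 and BLIMP1 are known to repress each other in lymphocytes. The 6 genes have different products. LYL1 is a basic helix-loop-helix transcription factor of blood stem and progenitor cells that binds DNA together with E proteins, LMO2, LDB1 and GATA factors. IL-34 is a secreted ligand of the receptor CSF1R, which it shares with CSF1, and it sustains Langerhans cells and microglia. Osteopontin, the product of Spp1, is a secreted matrix phosphoprotein that binds CD44 and integrins of the αv, α4 and α9 kinds. GPX8 is a peroxidase anchored in the endoplasmic reticulum membrane, where it removes peroxide made during oxidative protein folding. KY, named for the mouse kyphoscoliosis mutant, is a muscle protein that binds filamin C, and Tmem273 encodes a predicted membrane protein.

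The 6 genes lie on 5 chromosomes of GRCm38, with 2 of them far apart on chromosome 8. Lyl1 spans 84701457 to 84704715 on the plus strand of chromosome 8, and Il34 spans 110741829 to 110805924 on the minus strand. Ky spans 102505750 to 102546239 on chromosome 9, plus strand. Gpx8 spans 113042753 to 113046410 on chromosome 13, minus strand. Tmem273, also called 1810011H11Rik, spans 32785963 to 32817984 on chromosome 14, plus strand. Spp1 spans 104435118 to 104441050 on chromosome 5, plus strand.

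The RFP comparison asks how IELs with an active Bcl6 reporter and CD160 differ from IELs with neither. All 6 genes were close to absent in RFP+ cells and clearly present in RFP− cells, at 0.292 to 2.43% of the RFP− mean. Lyl1 stood at 0.0657, 0.0677 and 0.0291 FPKM in RFP+ libraries, against 16.6, 8.09 and 7.08 FPKM in RFP− libraries. RFP− replicate 1 was the highest, and the groups lay far apart. Lyl1 reads numbered 5 over the RFP+ libraries and 1082 over the RFP− libraries, and the depth-scaled ratio of RFP− to RFP+ reads was 199, with a 95% counting interval of 84.9 to 614. Such intervals cover counting error only. In bulk samples, fewer cells that express a gene and less RNA per cell cannot be told apart.

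The secreted ligands followed the same order. Il34 was at 0.0682, 0.140 and 0.211 FPKM in RFP+ libraries, against 10.0, 7.11 and 7.02 FPKM in RFP− libraries. Spp1 was at 0.365, 0.584 and 0.431 FPKM in RFP+ libraries, against 23.1, 21.7 and 23.4 FPKM in RFP− libraries. Spp1 was thus even within each group, with SDs of 0.113 FPKM in RFP+ and 0.914 FPKM in RFP− libraries (n = 3 each). The read ratio of RFP− to RFP+ was 56.2 for Il34 (95% counting interval 32.7 to 106, 13 RFP+ reads) and 49.8 for Spp1 (35.7 to 71.8, 35 RFP+ reads).

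Gpx8, the peroxidase gene, was at 0.191, 0 and 0.282 FPKM in RFP+ libraries, against 51.1, 31.4 and 30.8 FPKM in RFP− libraries. Ky was at 0, 0.0117 and 0.0302 FPKM in RFP+ libraries, against 4.33, 5.21 and 4.81 FPKM in RFP− libraries. Both genes had an RFP+ library without a read, and neither had more than 5 reads in any RFP+ library. Summed over libraries, Gpx8 had 8 RFP+ and 1995 RFP− reads, and Ky had 4 RFP+ and 1421 RFP− reads. Tmem273 was the member with the most RNA left, at 1.25, 0.858 and 1.88 FPKM in RFP+ libraries, against 54.1, 58.7 and 51.6 FPKM in RFP− libraries. Its 101 RFP+ reads against 4437 RFP− reads gave a ratio of 40.4 (33.1 to 49.7) for RFP− over RFP+, the narrowest interval of the 6.

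Per gene length, the order of the members in RFP− cells was Tmem273 (mean 54.8 FPKM), Gpx8 (37.8), Spp1 (22.8), Lyl1 (10.6), Il34 (8.05) and Ky (4.78). Only Lyl1 and Il34 were neighbours whose RFP− libraries overlapped. All 6 members were lower in RFP+ cells without overlap between groups, where 28.5% of the 9717 genes tested were lower without overlap and limma called 21.6% lower. Log2 fold changes of (FPKM + 1) were -5.03 for Gpx8, -4.60 for Tmem273, -4.03 for Spp1, -3.37 for Lyl1, -2.97 for Il34 and -2.51 for Ky. This scale understates the change of low genes such as Ky. Prdm1 was lower too, at 1.04 ± 0.223 FPKM in RFP+ against 26.9 ± 4.76 FPKM in RFP− libraries (SD, n = 3 each). The markers of the sort differed in the other direction, with Bcl6 at 15.3 ± 2.33 against 3.45 ± 0.144 FPKM and Cd160 at 238 ± 5.70 against 66.0 ± 3.94 FPKM in RFP+ against RFP− libraries. The summed epithelial marker genes spanned 106 to 127 FPKM in RFP+ and 101 to 221 FPKM in RFP− libraries. Cdh1 (44.9 to 63.5 FPKM over these libraries) and Epcam (30.3 to 53.5 FPKM) made up much of these sums. The epithelial list's median log2 fold change was -0.73, beside -0.03 over all genes, and 7 of 9 tested were not called. Sums of the myeloid, stromal and endothelial, mast cell and B cell lists were lower in RFP+ libraries without overlap. The myeloid list summed to 2.58 to 4.16 FPKM in RFP+ and 4.46 to 6.04 FPKM in RFP− libraries, with 2 of 2 tested genes called lower. The stromal and endothelial list summed to 1.95 to 2.63 FPKM in RFP+ and 6.52 to 6.80 FPKM in RFP− libraries, most of it Pecam1, which T cells also express. The mast cell list summed to 3.42 to 4.37 FPKM in RFP+ and 5.15 to 6.06 FPKM in RFP− libraries, and the B cell list to 13.8 to 15.0 FPKM in RFP+ and 17.1 to 19.9 FPKM in RFP− libraries. The part of these lists in the members' values was not tested.

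The LI libraries, which enter no comparison, held little RNA of the members. Lyl1 was at 0.0819 and 0.109 FPKM, Il34 at 0.0510 and 0, and Ky at 0.0453 and 0.0302. Gpx8 was at 0.127 in each library, Tmem273 at 2.72 and 2.85, and Spp1 at 0.424 and 0.296 FPKM. Every one of these values was below the lowest RFP− value of its gene. In the same libraries Prdm1 was at 0.728 and 0.660 FPKM and Tcf7 at 261 and 272 FPKM.

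**Figure D1:**
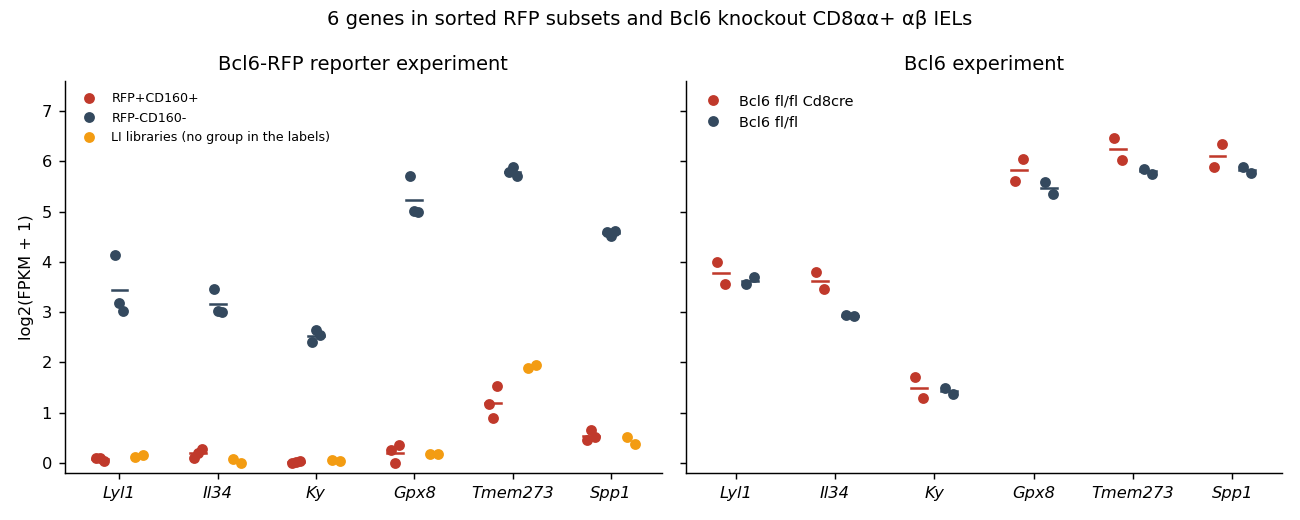
Each point is 1 library, on a log2(FPKM + 1) axis, for the 6 genes in RFP+, RFP− and LI libraries (left) and in Bcl6 knockout and littermate libraries (right), with bars at group means of the plotted values except for LI. RFP+ and LI points lie near 0 apart from Tmem273, RFP− points lie well above them, and the Bcl6 knockout and littermate points lie close together.

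The Prdm1 comparison asks how loss of BLIMP1 changes the CD8αα+ population. All 6 members were much lower in knockout libraries, and 4 of them (Lyl1, Il34, Ky and Gpx8) kept 2.06 to 3.97% of the littermate mean. Lyl1 was at 10.6 and 8.32 scaled reads in Prdm1 knockout libraries, against 533 and 385 in littermates. Il34 was at 8.48 and 8.32 scaled reads in knockout libraries, against 263 and 247 in littermates. For these regulators, one a transcription factor and one a cytokine, the knockout libraries held 8 to 10 reads each, and low counts in this table were mostly even (76.8 to 81.4% of low values), as when both ends of a fragment are counted.

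Ky stood at 53.0 and 15.6 scaled reads in Prdm1 knockout libraries, against 1301 and 733 in littermates. Gpx8 stood at 73.1 and 10.4 scaled reads in knockout libraries, against 1439 and 664 in littermates. These genes varied most among replicates of 1 genotype, yet the highest knockout value stayed far below the lowest littermate value. Tmem273 kept 13.4% of the littermate mean, with 343 and 181 scaled reads in knockout libraries, against 2009 and 1908 in littermates. Spp1 kept 14.7%, with 110 and 126 scaled reads in knockout libraries, against 583 and 1018 in littermates.

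Prdm1 knockout replicate 1 held more of the residual Prdm1 signal (640 against 362 scaled reads in replicate 2) and also more Ky, Gpx8 and Tmem273. Spp1 went the other way between these libraries, and Lyl1 and Il34 differed by 2 reads or fewer. Log2 fold changes of (scaled reads + 1) were -5.45 for Lyl1, -5.07 for Gpx8, -5.03 for Ky, -4.77 for Il34, -2.97 for Tmem273 and -2.70 for Spp1. All 6 were lower without overlap between groups, where 30.6% of the 10969 genes tested were lower without overlap and limma called 2.54% lower. The median log2 fold change over the members was -4.90, beside -0.04 over all genes tested. Epithelial markers moved with this comparison, with 9 of the 13 tested higher in knockout libraries and none lower. The epithelial list's median log2 fold change was 1.58. Its summed signal was 21884 to 26571 scaled reads in knockout libraries and 16174 to 16238 in littermates. Cdh1 (9600 to 10800 scaled reads over these libraries) and Epcam (2740 to 2810) made up much of that sum and varied little. The sum therefore understates the rise of the other epithelial markers. The myeloid list summed to 417 to 479 scaled reads in knockout libraries and 821 to 951 in littermates. Most of that difference was Itgam, an integrin also made by lymphocytes, at 58.9 ± 26.0 scaled reads against 644 ± 105 (SD, n = 2 each). Itgam was called lower (-3.49, limma adjusted p = 0.0036), and the 2 other tested genes were not called. Of these, Lyz2 was at 171 scaled reads in knockout libraries against 42.2 in littermates (1.83, limma adjusted p = 0.08), and Cd68 at -0.01 was even. Erythroid genes summed to 456 to 520 scaled reads in knockout libraries and 335 to 338 in littermates, with 0 of 5 called. The part of these lists in the members' values was not tested.

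The members' loss was not of one size in the RFP and Prdm1 experiments, whose values are on different scales. As a percentage of the mean of RFP− cells or littermates, Lyl1 was at 0.512% in RFP+ cells and 2.06% in Prdm1 knockout cells. Ky was at 0.292 and 3.37%, Gpx8 at 0.418 and 3.97%, and Il34 at 1.74 and 3.30%. Tmem273 was at 2.43 and 13.4% and Spp1 at 2.02 and 14.7%, the most RNA left of the 6 in both experiments. Prdm1 RNA itself was at 3.86% in RFP+ cells and 8.94% in Prdm1 knockout cells.

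The Tcf7 comparison asks what loss of TCF1 does. Its libraries are not among those from which the choice of genes started, though earlier results of these data were known. All 6 members were higher in every Tcf7 knockout library than in any littermate library, and limma called 5 of the 6 higher. Of the 15210 genes tested, 1.49% were called higher, 1.23% were called lower and 20.9% were higher without overlap between groups. Gpx8 was at 1567 and 1486 scaled reads in Tcf7 knockout libraries, against 640 and 615 in littermates. The SDs between replicates were 57.4 scaled reads in knockouts and 17.3 in littermates (n = 2 each), far less than the gap between genotypes. The log2 fold change of Gpx8 was 1.28 (SE 0.09, 95% interval 1.08 to 1.48, limma adjusted p = 7.3e-06). Only 0.230% of all genes tested had a fold change as high or higher.

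Tmem273 was at 4719 and 4284 scaled reads in Tcf7 knockout libraries, against 2843 and 2589 in littermates. Spp1 was at 1918 and 1880 scaled reads in knockout libraries, against 1232 and 1057 in littermates. Lyl1 was at 623 and 675 scaled reads in knockout libraries, against 383 and 406 in littermates. These 3 genes rose by nearly the same factor, to 165 to 166% of the littermate mean. The log2 fold change was 0.73 for Tmem273 (SE 0.07, limma adjusted p = 4.9e-05), 0.73 for Spp1 (SE 0.09, limma adjusted p = 0.00031) and 0.72 for Lyl1 (SE 0.13, limma adjusted p = 0.0063).

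Ky was at 1212 and 1136 scaled reads in Tcf7 knockout libraries, against 877 and 860 in littermates, a log2 fold change of 0.43 (SE 0.09, limma adjusted p = 0.023). Il34 was at 432 and 372 scaled reads in knockout libraries, against 287 and 280 in littermates. Its groups did not overlap either, but the log2 fold change of 0.50 (SE 0.16, 95% interval 0.16 to 0.83) did not pass (limma adjusted p = 0.15). edgeR on the recovered reads also called 5 of the 6, with Il34 at an adjusted p of 0.16, where it called 2.06% of genes in either direction. With 1 knockout library left out, the lone other one is assumed to vary like the littermates. Without Tcf7 knockout replicate 2 the fold changes of Lyl1 (0.66) and Ky (0.48) stayed about as large, but their limma adjusted p was 0.060 and 0.054, so 3 members were called. Without replicate 1 Ky was at 0.39 (limma adjusted p = 0.24), and 4 were called.

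Prdm1 was itself slightly higher in Tcf7 knockout cells, at 6370 ± 13.1 scaled reads against 5487 ± 41.0 in littermates (SD, n = 2 each), a log2 fold change of 0.22 (limma adjusted p = 0.045, edgeR adjusted p = 0.059). Among markers of other cells, 4 of 13 tested epithelial genes were called higher in knockout libraries. The list's median log2 fold change was 0.34, beside 0 over all genes. It summed to 32421 to 33079 scaled reads in knockout libraries and 26828 to 26829 in littermates. Much of that sum was Cdh1 (14300 to 16100 scaled reads over these libraries) and Epcam (4420 to 5410). Erythroid genes had 2 of 5 called higher, with sums of 1034 to 1138 in knockout libraries and 577 to 653 in littermates. Of the myeloid list 1 of 3 was called higher, Itgam, an integrin also made by lymphocytes, while the macrophage genes C1qa, C1qb and C1qc together stood at 7.96 and 11.4 scaled reads in knockout libraries and 7.61 and 11.0 in littermates. The part of the epithelial and erythroid genes in the members' values was not tested.

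**Figure D2:**
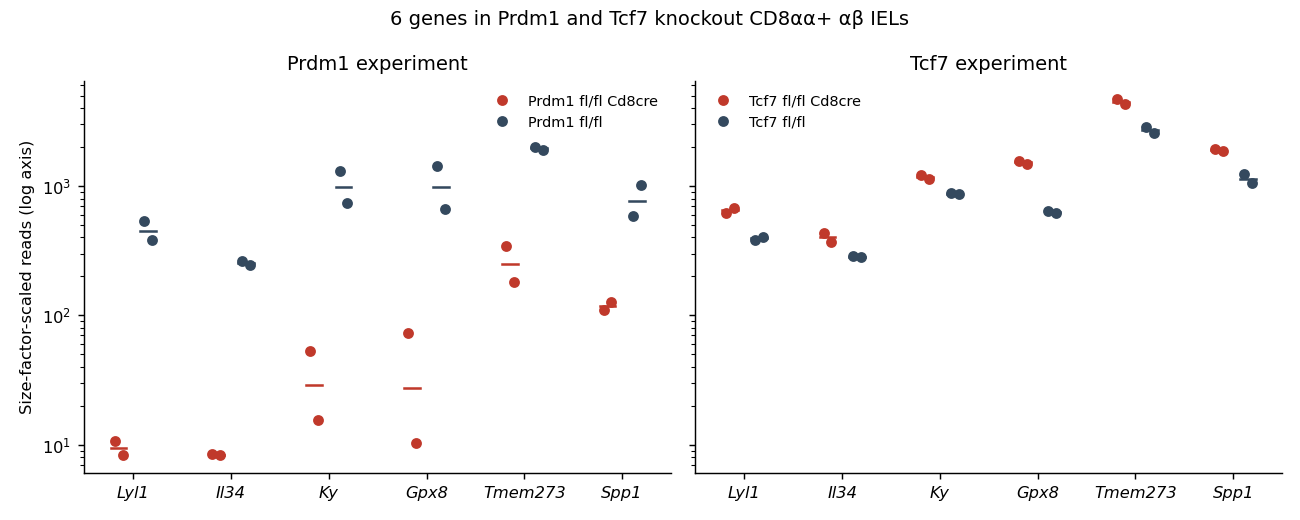
Each point is 1 library, on a log axis of size-factor-scaled reads, for the 6 genes in Prdm1 knockout and littermate cells (left) and Tcf7 knockout and littermate cells (right), with bars at geometric group means. All Prdm1 knockout points lie below the littermate points of their gene, and all Tcf7 knockout points lie above.

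The Bcl6 comparison asks what loss of BCL6 does in the same population, although most of the whole-gene Bcl6 RNA signal stayed. No member passed the test, against 0.418% of the 9573 genes tested that were called in either direction, 0.0313% higher and 0.387% lower. Of the members, Il34 and Tmem273 had the lowest limma adjusted p. Il34 was at 12.9 and 10.0 FPKM in Bcl6 knockout libraries, against 6.66 and 6.58 FPKM in littermates. Both knockout values lay above both littermate values, with a log2 fold change of 0.70 (SE 0.19, 95% interval 0.28 to 1.12, limma adjusted p = 0.33). Tmem273 was at 87.8 and 64.3 FPKM in knockout libraries, against 56.7 and 52.8 FPKM in littermates (log2 fold change 0.45, 95% interval 0.03 to 0.87, limma adjusted p = 0.83).

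Gpx8 was at 47.7 and 64.8 FPKM in Bcl6 knockout libraries, against 47.3 and 39.9 FPKM in littermates (log2 fold change 0.35, limma adjusted p = 0.94). Spp1 was at 57.9 and 80.7 FPKM in knockout libraries, against 58.5 and 53.3 FPKM in littermates, so the genotypes overlapped (log2 fold change 0.29, limma adjusted p = 0.95). Lyl1 overlapped too, at 14.9 and 10.8 FPKM in knockout libraries and 10.8 and 12.0 FPKM in littermates. Its log2 fold change of 0.15 had a 95% interval of -0.30 to 0.59. Ky was lowest of the members, at 2.27 and 1.44 FPKM in knockout libraries and 1.80 and 1.60 FPKM in littermates (log2 fold change 0.07, 95% interval -0.42 to 0.55).

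In all, 3 of the 6 members (Il34, Gpx8 and Tmem273) were higher in Bcl6 knockout libraries without overlap, where 19% of all genes tested were. With 1 knockout library left out the counts changed, but the lone library is then assumed to vary like the littermates, whose spread alone enters the test. Without Bcl6 knockout replicate 1, limma called 3 members higher (Il34, Gpx8 and Spp1, adjusted p = 0.043, 0.0032 and 0.006) and the calls over all genes numbered 1562 in place of 40. Without replicate 2 it called 2 higher (Il34 and Tmem273, adjusted p = 0.00064 and 0.00067), with 199 calls over all genes. Replicate 2, the library with the higher Spp1, also held more macrophage RNA, with C1qa, C1qb and C1qc together at 22.8 FPKM, against 3.91 FPKM in replicate 1 and 2.61 and 6.11 FPKM in littermates. The part of these cells in the Spp1 values was not tested.

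**Figure D3:**
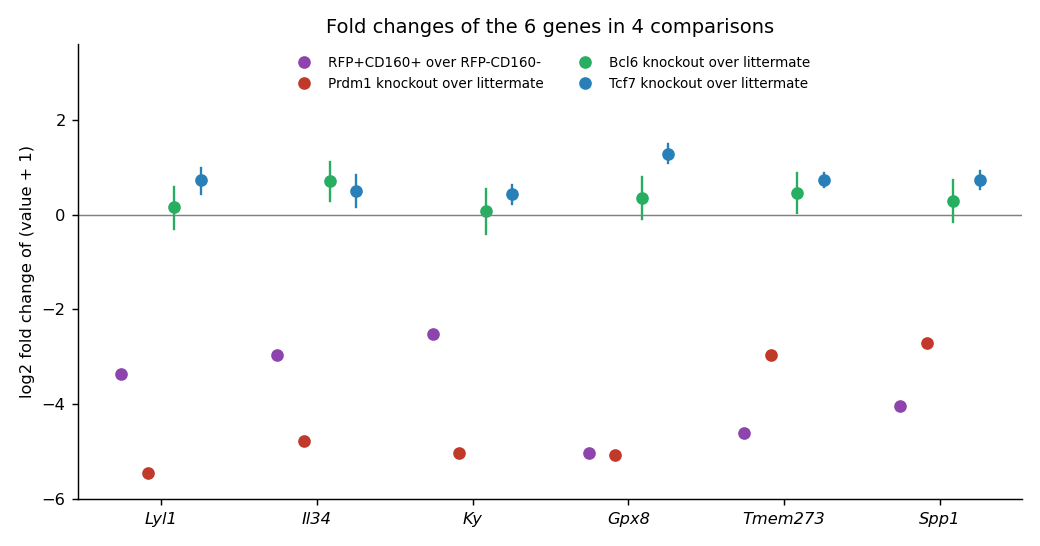
Points are log2 fold changes of (value + 1) for the 6 genes in 4 comparisons, knockout over littermate or RFP+ over RFP−. Vertical lines are 95% limma intervals for the Bcl6 and Tcf7 comparisons, from which the choice of genes did not start. All RFP and Prdm1 points lie between -5.45 and -2.51, the Bcl6 points between 0.07 and 0.70, and the Tcf7 points between 0.43 and 1.28.

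Genes known to act with each product were read next, from lists put together with earlier results of these data known. Among 12 tested partners of LYL1 in the Prdm1 experiment, 2 were called higher in knockout cells and 1 lower, and the list's median log2 fold change was -0.03, beside -0.04 over all genes. Here limma called 4.29% of all genes higher and 2.54% lower. Lmo4, which encodes a LIM-only adaptor of the same complex family, fell to 519 ± 16.7 scaled reads in Prdm1 knockout cells, against 1254 ± 125 in littermates (SD, n = 2 each, log2 fold change -1.27, limma adjusted p = 0.0043). In Tcf7 knockout cells Lmo4 was at 1805 ± 29.5 scaled reads, against 1348 ± 136 in littermates, and was called higher (0.42, limma adjusted p = 0.016). It was the member of that list called in the Tcf7 experiment, 1 of 12 tested, beside 1.49% of all genes called higher. Lmo4 was also lower in RFP+ cells, at 6.22 ± 0.196 FPKM against 11.7 ± 1.44 FPKM in RFP− cells (SD, n = 3 each, -0.81, limma adjusted p = 0.00024).

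The inhibitors of E proteins, ID1 and ID3, were called higher in Prdm1 knockout cells. Id3 was at 1228 ± 224 scaled reads in Prdm1 knockout cells and 403 ± 186 in littermates (SD, n = 2 each, log2 fold change 1.68, limma adjusted p = 0.026). Id1 was at 119 ± 8.79 scaled reads in Prdm1 knockout cells and 25.2 ± 3.43 in littermates (2.19, limma adjusted p = 0.016). Id1 was at 0.208 ± 0.129 FPKM in RFP+ and 0.773 ± 0.989 FPKM in RFP− cells (SD, n = 3 each), below the level needed for a test. In RFP+ cells Id3 was higher (3.65, limma adjusted p = 1.2e-06), as was Ssbp2, which encodes an LDB1-binding protein (1.32, limma adjusted p = 1.6e-05). Over that list limma called 4 higher and 2 lower of 9 tested in RFP+ cells, where 16.4% of all genes were called higher and 21.6% lower. In Bcl6 knockout cells Id3 was the 1 gene called of 10 tested and was lower, at 13.2 ± 3.35 FPKM against 46.9 ± 1.14 FPKM in littermates (SD, n = 2 each, -1.77, limma adjusted p = 0.0054).

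Csf1r, the gene of the IL-34 receptor, was at most 0.0347 FPKM in any RFP+ or RFP− library, far below the 7.02 to 10.0 FPKM of Il34 in RFP− libraries. In the Bcl6 experiment Csf1r was at most 0.481 FPKM, against 6.58 to 12.9 FPKM of Il34. Csf1, the other ligand of that receptor, was at 55.1 to 86.9 scaled reads in Prdm1 knockout libraries and 8.28 to 34.5 in littermates, a log2 fold change of 1.95 that did not pass (limma adjusted p = 0.17). Csf1 was named after its values were seen. Csf2, the gene of the related myeloid factor GM-CSF, was higher in RFP+ cells, at 13.5 ± 5.45 FPKM against 0.492 ± 0.230 FPKM in RFP− cells (SD, n = 3 each, 3.22, limma adjusted p = 6.2e-05). Its log2 fold change in Prdm1 knockout cells was 2.57, with an adjusted p of 0.10 by limma. Tyrobp, which encodes the signalling adaptor DAP12, was lower in RFP+ cells (-2.02, limma adjusted p = 4.4e-06) and in Prdm1 knockout cells (-0.64, limma adjusted p = 0.023). Csf2ra, a GM-CSF receptor chain, was higher in RFP+ cells (0.57, limma adjusted p = 0.0028). Of the list's genes, 2 higher and 1 lower of 3 tested were called in RFP+ cells, 1 lower of 5 in Prdm1 knockout cells, 0 of 4 in Bcl6 knockout cells and 0 of 4 in Tcf7 knockout cells. Over all genes tested, limma called 16.4% higher and 21.6% lower in RFP+ cells, and 4.29% higher and 2.54% lower in Prdm1 knockout cells.

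Osteopontin receptors followed. CD44, the adhesion receptor that osteopontin and hyaluronan bind, had its gene at 3262 ± 331 scaled reads in Prdm1 knockout cells and 1164 ± 27.8 in littermates (SD, n = 2 each, log2 fold change 1.48, limma adjusted p = 0.0027). In Tcf7 knockout cells Cd44 was at 754 ± 19.3 scaled reads and in littermates at 1502 ± 55.6 (-0.99, limma adjusted p = 3.8e-05). In RFP+ cells it was at 7.21 ± 0.535 FPKM and in RFP− cells at 2.20 ± 0.158 FPKM (SD, n = 3 each, 1.36, limma adjusted p = 8.5e-06). Cd44 therefore lay opposite to Spp1 in each of these 3 comparisons, and in Bcl6 knockout cells it did not pass (-0.52, limma adjusted p = 0.72).

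The integrin chains varied. Itgb1, the β1 chain, was higher in Prdm1 knockout cells (0.59, limma adjusted p = 0.021) and in RFP+ cells (0.57, limma adjusted p = 6.6e-05). Itga4, the α4 chain, was higher in RFP+ cells (1.12, limma adjusted p = 1.9e-05), while the αv and β3 chains were lower there, with Itgav at -0.75 (limma adjusted p = 0.0011) and Itgb3 at -0.83 (limma adjusted p = 0.0012). Itga5, the α5 chain, was higher in RFP+ cells (0.75, limma adjusted p = 0.0045), and it and Itgb3 were named after their values were seen. Itgav was slightly higher in Tcf7 knockout cells (0.24, limma adjusted p = 0.045). Thbs1, which encodes the matrix protein thrombospondin, was higher in Prdm1 knockout cells, at 493 ± 265 scaled reads against 79.4 ± 9.81 in littermates (2.52, limma adjusted p = 0.014). It was also higher in Tcf7 knockout cells, at 266 ± 51.6 against 50.7 ± 27.9 scaled reads in littermates (SD, n = 2 each, 2.47, limma adjusted p = 0.0011). The list had 3 higher and 0 lower of 7 tested in Prdm1 knockout cells, 2 higher and 1 lower of 8 in Tcf7 knockout cells, 4 higher and 2 lower of 6 in RFP+ cells and 0 of 7 in Bcl6 knockout cells. Shares over all genes were 4.29% higher and 2.54% lower in Prdm1 knockout cells and 1.49% higher and 1.23% lower in Tcf7 knockout cells. In RFP+ cells these shares were 16.4% higher and 21.6% lower. The list's median log2 fold change was 0.59 in the Prdm1, 0.08 in the Tcf7, 0.66 in the RFP and -0.29 in the Bcl6 comparison, beside -0.04, 0, -0.03 and 0.03 over all genes.

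Other enzymes of peroxide removal and oxidative folding were mostly not called in the Prdm1, Tcf7 and Bcl6 comparisons. Those called in RFP+ cells were all lower. Of 10 tested in the Prdm1 experiment 1 was called, beside 4.29% of all genes called higher. It was Gpx2, a peroxidase of gut epithelium. Gpx2 was higher in knockout libraries, at 144 ± 20.3 scaled reads against 42.3 ± 15.9 in littermates (SD, n = 2 each, 1.78, limma adjusted p = 0.036). Epithelial markers were also higher there, with 9 of 13 tested called and a median log2 fold change of 1.58. Their part in the Gpx2 values was not tested. Of 12 tested in the Tcf7 experiment 1 was called, beside 1.49% of all genes called higher. It was Hspa5, the gene of the chaperone BiP, which was higher in knockout cells (0.27, limma adjusted p = 0.0039). In RFP+ cells 4 of 9 were called lower and 0 higher, beside 21.6% of all genes called lower and 16.4% higher. They were the disulfide isomerase genes Pdia6 (-0.29, limma adjusted p = 0.0016), Pdia3 (-0.25, limma adjusted p = 0.0042) and Pdia4 (-0.22, limma adjusted p = 0.0084) and, named after its value was seen, the sulfhydryl oxidase gene Qsox1 (-0.26, limma adjusted p = 0.0092). In Bcl6 knockout cells 0 of 10 were called. Of the partners of KY, limma called 0 of 3 tested in Prdm1 knockout cells, 0 of 3 in Tcf7 knockout cells and 0 of 2 in Bcl6 knockout cells.

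Genes known as repressed by BLIMP1 were read beside the 6 members. In Prdm1 knockout cells 4 of 10 tested were called higher and 0 lower, beside 4.29% of all genes called higher, among them Tcf7 at 30025 ± 1514 scaled reads against 9536 ± 4145 in littermates (SD, n = 2 each, 1.73, limma adjusted p = 0.016). Myc (0.79, limma adjusted p = 0.020) and Bach2 (1.05, limma adjusted p = 0.030) were also higher there. In RFP+ cells 6 of 8 were called higher, beside 16.4% of all genes, and these include Bcl6, whose reporter defined the sort. The 1 called lower there was Bcl2a1b (-0.64, limma adjusted p = 0.00022), named after its value was seen and one of a group of near-identical genes whose reads may be split. In Tcf7 knockout cells 3 of 12 were called lower and 0 higher, beside 1.23% of all genes called lower. They were Tcf7 itself, Bcl6 (-0.38, limma adjusted p = 0.0065) and Bach2 (-0.67, limma adjusted p = 0.014). In Bcl6 knockout cells 1 of 7 was called, Id3, beside 0.387% of all genes called lower. Where the RFP library totals were made equal, the calls over all genes numbered 3312 higher and 1164 lower, against 1591 higher and 2098 lower as deposited. The median of all genes was 0.12 after that rescaling and -0.03 before it, and RFP differences as small as those of the Pdia genes are near this shift.

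**Figure D4:**
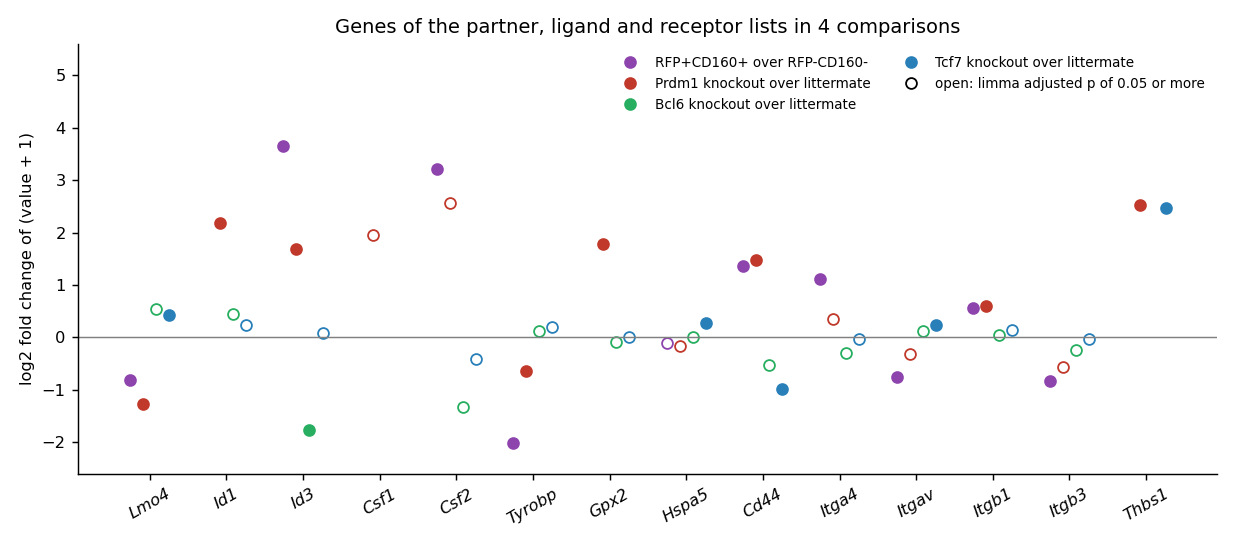
Points are log2 fold changes of (value + 1) of genes from the partner, ligand and receptor lists in 4 comparisons, with filled points called by limma at an adjusted p under 0.05 and open points not called. Cd44 is filled above 0 in the RFP and Prdm1 comparisons and below 0 in the Tcf7 comparison, and Lmo4 is filled on the opposite sides.

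The neighbourhood of Gpx8 held other genes with its pattern. Within 100 kb of each member, a window set after the data were seen, 4 protein-coding genes near Gpx8 were tested in each experiment. Gpx8 lies wholly inside Cdc20b, which runs on the opposite strand from 113035111 to 113091195 on chromosome 13, and 47.4 kb from the granzyme gene Gzma on its own strand. Their exons share 0 of the 1048 exon bases of Gpx8 in GENCODE vM21, but whether reads were counted by strand is not given in the sources used here, so reads from introns of Cdc20b could fall in Gpx8 and its level is uncertain to that degree.

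Cdc20b stood at 195 and 47.8 scaled reads in Prdm1 knockout libraries, against 3482 and 1965 in littermates. This gave a log2 fold change of -4.74 (SE 0.61, limma adjusted p = 0.0085). Gzma, a granule protease of cytotoxic lymphocytes, stood at 15701 and 7212 scaled reads in Prdm1 knockout libraries, against 267146 and 277468 in littermates (-4.68, SE 0.34, limma adjusted p = 0.0025). In Tcf7 knockout libraries Cdc20b was at 3358 and 3201 scaled reads, against 1931 and 1948 in littermates (0.76, SE 0.07, limma adjusted p = 2.5e-05). Gzma was called higher there too (0.52, SE 0.06, limma adjusted p = 0.00014). In RFP+ cells Cdc20b was at 0.0571 ± 0.0347 FPKM, against 13.0 ± 4.14 FPKM in RFP− cells (SD, n = 3 each).

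Dhx29 and Ccno lie on the other side of Gpx8. Dhx29, an RNA helicase gene 73.3 kb from Gpx8, was called in none of the 4 comparisons, with log2 fold changes of -0.23 (Prdm1), 0.14 (Tcf7), -0.15 (RFP) and 0.10 (Bcl6). Ccno, a cyclin gene of multiciliated cells, was called lower in RFP+ cells (-0.87, limma adjusted p = 0.00068), in the direction of Gpx8. Its -1.48 in Prdm1 knockout cells (limma adjusted p = 0.19) and 0.69 in Tcf7 knockout cells (limma adjusted p = 0.098) had the sign of Gpx8 but did not pass. In Bcl6 knockout cells Ccno was at -0.78 (limma adjusted p = 0.26), opposite in sign to Gpx8. Around Lyl1, Il34, Ky and Spp1, limma called 0 of 11 tested neighbours in Prdm1 knockout cells and 0 of 11 in Tcf7 knockout cells. Over all genes, 4.29% were called higher and 2.54% lower in Prdm1 knockout cells, and 1.49% higher and 1.23% lower in Tcf7 knockout cells. In RFP+ cells 3 of 9 were called lower and 2 higher, where 21.6% of all genes were called lower and 16.4% higher. In Bcl6 knockout cells limma called 0 of 8 around Lyl1, Il34 and Ky, beside 0.418% of all genes in either direction. The 2 neighbours of Tmem273 were not tested in any comparison. Spp1 had 1 tested neighbour, Pkd2, in all but the Bcl6 comparison. Nfix, which contains Lyl1 on the opposite strand and shares 4 of its 1800 exon bases, was at 99.8 ± 17.7 scaled reads in Prdm1 knockout cells and 49.9 ± 28.2 in littermates (SD, n = 2 each), not in the direction of Lyl1 and not called (limma adjusted p = 0.24).

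**Figure D5:**
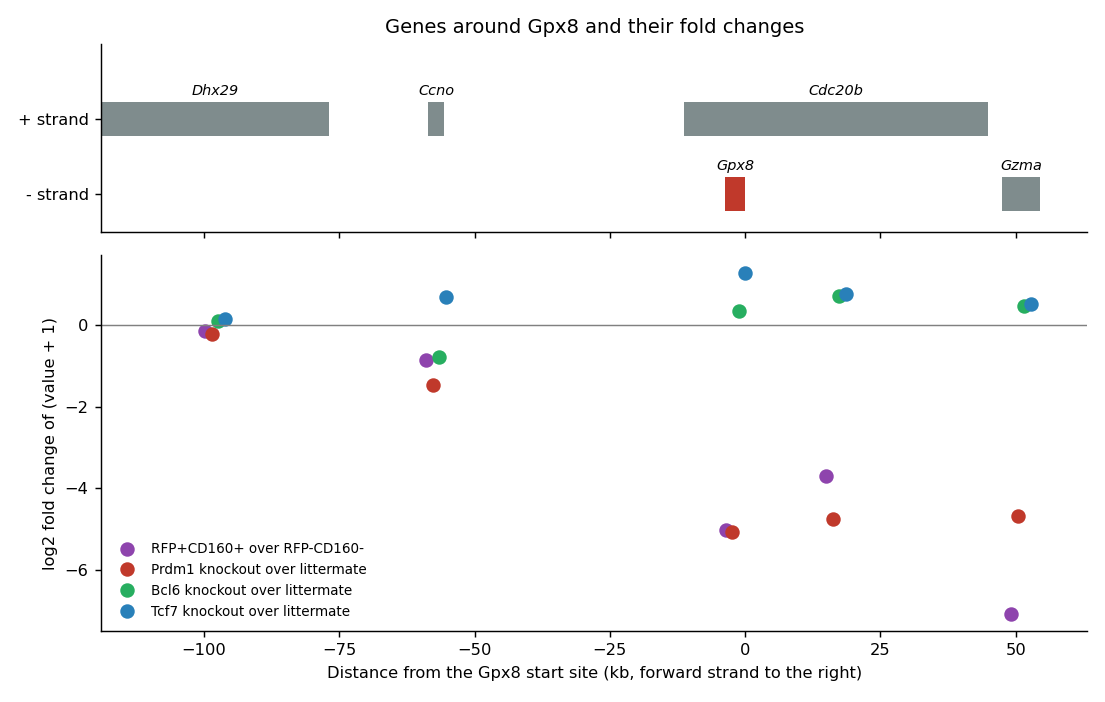
The upper panel draws the genes around Gpx8 to scale by strand, with distance from the Gpx8 start in kb, and the lower panel plots their log2 fold changes of (value + 1) in 4 comparisons at each gene's centre, points being set slightly apart. Gpx8, Cdc20b and Gzma lie between -7.07 and -3.69 in the RFP and Prdm1 comparisons and above 0 in the Bcl6 and Tcf7 comparisons, while Dhx29 lies near 0 in all.

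Promoter sequences were read for the members because all 6 genes were low together where Prdm1 was lost. RefSeq entries for GRCm38.p6, running from 250 bases before to 50 bases after a start site, were found for 5 of the 6 members (6 entries, of which 2 belong to Spp1). The BLIMP1 core letters GNGAAAG were searched on both strands. They occurred in 2 of the 6 member promoters, Lyl1 and Gpx8, and in 22.6% of 32851 promoters. The promoters of Lyl1 (chr8:84701207-84701506, plus strand) and Gpx8 (chr13:113046339-113046638, minus strand) are shown because they hold the match, written in capitals as its reverse complement, and the upstream Spp1 promoter (chr5:104434861-104435160, plus strand) is shown for contrast because it holds none.
Lyl1: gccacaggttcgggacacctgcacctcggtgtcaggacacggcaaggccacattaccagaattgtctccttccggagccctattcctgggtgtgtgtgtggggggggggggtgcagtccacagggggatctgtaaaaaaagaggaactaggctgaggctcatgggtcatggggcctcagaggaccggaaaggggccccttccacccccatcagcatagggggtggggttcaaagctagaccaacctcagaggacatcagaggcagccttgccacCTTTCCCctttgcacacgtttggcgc
Gpx8: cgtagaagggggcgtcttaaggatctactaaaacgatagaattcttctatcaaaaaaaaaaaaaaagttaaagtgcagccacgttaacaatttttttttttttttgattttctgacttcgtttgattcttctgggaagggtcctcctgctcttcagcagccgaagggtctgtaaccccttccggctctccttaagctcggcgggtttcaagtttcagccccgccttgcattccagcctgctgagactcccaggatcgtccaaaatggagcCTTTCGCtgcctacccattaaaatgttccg
Spp1: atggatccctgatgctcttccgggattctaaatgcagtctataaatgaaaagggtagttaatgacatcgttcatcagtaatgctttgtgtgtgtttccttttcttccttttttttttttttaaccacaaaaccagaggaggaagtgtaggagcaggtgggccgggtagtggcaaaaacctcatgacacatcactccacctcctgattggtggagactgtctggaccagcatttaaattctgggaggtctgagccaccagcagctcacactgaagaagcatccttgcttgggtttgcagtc
The match began 24 bases after the start site in Lyl1 and 20 bases after it in Gpx8, so in both it lay in transcribed sequence. The TCF1 letters CTTTGAT occurred in 0 of the 6 member promoters and in 3.73% of all. The BCL6 letters TTCNNNGAA occurred in 1 of 6, in Gpx8 122 bases before the start site, and in 8.3% of all. The E-box CANNTG, to which LYL1 and its E-protein partners bind, occurred in 5 of 6 member promoters, all but Gpx8, and in 72.3% of all. A match is a run of letters and not a shown binding site, and a missing match says only that these letters are not in these 300 bases.

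Across the 18 grouped libraries, log2(value + 1) values were centred on the mean of their experiment, and the genes closest to each member were ranked by Pearson r among 9111 genes. The RFP and Prdm1 contrasts, in which the members were chosen, enter these correlations, and libraries of an experiment share their normalization, so r is given as a description. Among the 15 pairs of members r ran from 0.820 (Ky with Spp1) to 0.991 (Lyl1 with Il34). Lyl1 and Il34, which lie on the same chromosome but far apart, were each other's closest gene. Next to them came Dennd5a (r = 0.980 with Lyl1 and 0.981 with Il34), then Lmtk3 for Lyl1 (0.975) and Tiam2, a Rac exchange factor gene, for Il34 (0.970). Ky had Dennd5a (0.990), Tiam2 (0.981) and Runx1, the gene of a transcription factor of CD8 T cells (0.977).

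Gpx8 was closest to its host locus Cdc20b (0.989), then to Prkar1a, a regulatory subunit of protein kinase A (0.981), and Slc16a10, an aromatic amino acid transporter gene (0.979). Prkar1a moved little, with a log2 fold change of -0.29 in Prdm1 knockout cells, so a high r here describes shape and not size. Tmem273 was closest to the granzyme gene Gzma (0.994), the chemerin-binding receptor gene Ccrl2 (0.992) and Gzmb (0.992). Spp1 was closest to Slc25a37, a mitochondrial iron importer gene (0.984), the chemokine receptor gene Cxcr6 (0.984) and the glutaredoxin gene Glrx (0.983). Cxcr6 was at 1866 ± 286 scaled reads in Prdm1 knockout cells and 5452 ± 103 in littermates, and at 9729 ± 169 in Tcf7 knockout cells and 6313 ± 606 in littermates (SD, n = 2 each).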

How the data were processed

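Total RNA of sorted cells was sequenced in 20 libraries. Per the submitters' processing notes, Trim Galore 0.4.4, Bowtie2, featureCounts, Subread, RSEM and DESeq2 were used with the mm10 build, with no role or order given. The authors deposited FPKM for the RFP, LI and Bcl6 libraries. For the Prdm1 and Tcf7 libraries the deposited values are a signal without gene length, whole multiples of 1 read divided by a size factor: 100% of values came out whole (tolerance 0.01 reads). For FPKM, 96.9 to 97.7% of low values came out whole with GENCODE vM21 exon lengths (tolerance 0.02 reads); the length of Lyl1 needed a factor of 1.13 to give whole reads.

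With limma 3.58.1 in R 4.3.3 (eBayes with trend), log2(value + 1) was fitted per experiment without covariates. Genes entered at 1 FPKM or 50 scaled reads or more in at least the smaller group's number of libraries. All tests were two-sided and adjusted by Benjamini-Hochberg over all genes of the experiment, with a threshold of 0.05, and the fit was tested on simulated data. On recovered reads edgeR 4.0.16 and DESeq2 1.42.0 were alternatives. Other alternatives were pseudocounts of 0.1 and 10, no filter, quantile normalization, rescaled totals, each library left out and a replicate block. edgeR called 783 of 12476 genes in the Prdm1 and 400 of 19379 in the Tcf7 experiment.

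The 6 members, the gene and marker lists and the tests were chosen with earlier results of these data known. Named genes are the members, Prdm1, Bcl6, Tcf7 and Cd160, up to 3 called genes of each list and comparison by smallest p, a few more called genes of those lists marked in the text as named later, and the 3 genes closest to each member by Pearson r, leaving out Prdm1, sex-linked genes, gene models and receptor segments. Genes of the T-cell receptor chains were not analysed here. The RFP result of the KY partner list is not reported here. Tables were handled in Python 3.11.15 with pandas 2.3.3.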

Additional observations from a re-analysis of the deposited data

Results flagged for a closer look

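The LI libraries belong to no group and enter no comparison, yet most members gave a signal there above the limit that a count of 0 allows. For Lyl1, Ky and Gpx8 it rested on few reads. Lyl1 was at 0.0819 FPKM in LI library 1 and 0.109 FPKM in LI library 2 (5 reads each). Ky was at 0.0453 and 0.0302 FPKM (8 and 4 reads), and Gpx8 at 0.127 FPKM in library 1 (4 reads). Tmem273 was at 2.72 and 2.85 FPKM. Spp1 was at 0.424 and 0.296 FPKM, not above its highest RFP+ value of 0.584 FPKM. Tmem273 exceeded its highest RFP+ value of 1.88 FPKM in both libraries, and Lyl1 exceeded its own of 0.0677 FPKM in both. Ky exceeded its highest RFP+ value of 0.0302 FPKM in library 1.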

How the results depend on the processing

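All 6 members stayed lower in the RFP and Prdm1 comparisons and higher in the Tcf7 comparison under every alternative run. RFP fold changes depend on the pseudocount, from -7.37 to -5.11 at 0.1 and from -2.51 to -0.56 at 10. In the Prdm1 experiment 750 genes were called, 569 to 1255 with 1 library left out (1255 without littermate replicate 2), 2386 with a replicate block and 1239 with DESeq2. In the Tcf7 experiment 413 genes were called, 243 to 738 with 1 library left out and 977 with the block, and the members called were 5, or 3 to 5 with 1 library left out. In the Bcl6 experiment 40 genes were called, 39 to 1562 with 1 library left out, 78 with the block and 452 with the numbers crossed, an alternative chosen after seeing the data. Members called there were 0, or 0 to 3 with 1 library left out, and 1 (Il34) with the numbers crossed. With 1 library left out, the Bcl6 fold changes ran from -0.06 to 0.36 for Lyl1 and from -0.14 to 0.28 for Ky, both negative without knockout replicate 1. A fit with 1 library in an arm assumes that it varies like the other group. The causes were not tested.

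The labels do not say that replicate numbers mark pairs. Deviations of same-numbered libraries correlated at 0.53 in the Prdm1, 0.06 in the Tcf7, -0.46 in the Bcl6 and -0.33 to 0 in the RFP experiment, so the block is only an alternative. The RFP calls numbered 3689, or 2992 with the block, and the block changed no call of a member. With 2 libraries per knockout group, and 8 to 10 reads of Lyl1 or Il34 in Prdm1 knockout libraries, small differences are not detectable.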
